A study of Mus musculus with 12 samples.

Results

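Aldosterone left 37 expressed genes of mouse muscle fibroblasts at between 19.3% and 55.6% of their level with vehicle. These genes were taken from the 27319 genes in the table of aldosterone and vehicle libraries by a rule on the values themselves. The mean normalized count of the 4 vehicle libraries had to be at least 50, which 12254 genes met. The highest of the 4 aldosterone libraries had to lie below 0.6 times the lowest vehicle library. Both conditions were met by 38 of those genes, or 0.31%, of which 1 was the chemokine *Cxcl5*, and chemokines were left out. All 37 genes were also found in the table of spironolactone and vehicle. The cells were primary fibroblasts from hindlimb muscle of C57 BL/10 wild-type mice at 3 days of age, from 2 mice, with 2 replicate plates per mouse and treatment. They were purified by adherence, kept in charcoal-stripped serum for a day before treatment so that steroids of the serum were removed, and treated at their second passage for 48 hours with 1 µM aldosterone, 1 µM spironolactone or the vehicle DMSO. Each group had 4 poly(A) libraries, each with a sample number and a biological replicate number, but which number stands for the mouse is not given. The plates of a mouse came from pooled cells, so the spread among 4 libraries, which the p-values below measure, is partly that between plates.

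Aldosterone is the steroid ligand of the mineralocorticoid receptor and can also bind the glucocorticoid receptor, and spironolactone is an antagonist of the mineralocorticoid receptor. Both receptors act in the nucleus, where they raise some genes and lower others. Fibroblasts of muscle make the matrix around the fibres and secrete factors that act on neighbouring cells. The 37 genes include secreted factors and matrix proteins, the receptors and ligands of WNT and cytokine signalling, enzymes that modify sugars on proteins, adhesion molecules, channels and clock transcription factors.

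The values that chose the genes are those of aldosterone and vehicle, so the differences between these groups are given below as a description, with no test. Values are normalized counts, in which the reads of a gene are divided by a size factor of the library. Log2 differences are from limma on log2(normalized count + 1), which understates the change of genes with low counts. The libraries held between 19136923 and 30219185 reads on genes, and the known steroid-raised genes *Fkbp5*, *Tsc22d3*, *Per1*, *Sgk1*, *Serpina3n* and *Zbtb16* were higher with aldosterone, 6 of 6 by limma, at thresholds of 0.05 for the adjusted p and 1 for the log2 difference. Fibroblast markers had a summed value between 1175020 and 1266560 with vehicle, between 1029550 and 1146940 with aldosterone and between 1116090 and 1226230 with spironolactone. This sum was mostly *Col1a1* (means of 570625 with vehicle and 453028 with aldosterone) and *Col1a2* (373198 and 330218). Of these 11 markers 3 were higher with aldosterone by the adjusted p of limma (*Pdgfra*, *Ly6a* and *Vim*) and 1 was lower (*Col3a1*). The shares of all genes were 5.68% higher and 4.74% lower. *Pdgfra* was at 3149 ± 206 normalized counts with vehicle and 5912 ± 312 with aldosterone. The summed value of 11 muscle markers in the table ranged from 562 to 826 with vehicle and from 242 to 489 with aldosterone, and that of 8 macrophage and leukocyte markers from 376 to 544 and from 262 to 338. The first sum was mostly *Acta1* (means of 539 and 236), and in the second *F13a1* was at 169 and 35.0 while *Lyz2* was at 165 and 153. That of 7 endothelial markers ranged from 477 to 533 with vehicle and from 681 to 754 with aldosterone. This rise was mostly in *Kdr* (means of 45.1 and 168) and *Tek* (444 and 523). Of the rarer markers *Cdh5* was at 9.50 and 15.2, *Pecam1* at 6.57 and 2.85 and *Tie1* at 1.39 and 0.691. The muscle and leukocyte markers *Pax7*, *Myod1*, *Ptprc* and *Adgre1* were at a mean of at most 2.58 in each of these 2 groups. Others had more, such as *Des* (98.5 and 74.7) and *Csf1r* (54.1 and 47.9). The sum of 7 pericyte and smooth muscle markers ranged from 62578.5 to 88764.8 with vehicle and from 48479.5 to 72714.2 with aldosterone. Of 6 tendon markers 3 were lower by the adjusted p of limma (*Scx*, *Tnmd* and *Kera*) and 0 were higher, beside 4.74% and 5.68% of all genes. *Scx* was at 1828 and 1075. By the adjusted p 0 pericyte markers differed and 1 of 6 Schwann cell markers was higher (*S100b*), beside the same shares of all genes. In bulk samples fewer cells of a type and less RNA per cell cannot be told apart, and the part of these cells in the results was not tested.

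*Igsf10* and *Gxylt2* lead the set as its named examples. *Igsf10* (ENSMUSG00000036334) codes for a large secreted protein with immunoglobulin domains and lies on the minus strand at chr3:59224156-59251815 of the coordinates in the tables, for which the submitters' processing notes name mm39. Its normalized counts were 10587, 10570, 9121 and 10146 with vehicle and 3849, 3743, 3808 and 3714 with aldosterone. The spironolactone libraries were at 9668, 9475, 9348 and 9373. The 4 aldosterone libraries lay close together and far below every other library, and those with spironolactone overlapped those with vehicle. The mean with aldosterone was 3779 ± 61.6 (SD, n = 4) and that with vehicle 10106 ± 688 (SD, n = 4), so 37.4% of vehicle, with a log2 difference of -1.42 (SE 0.06).

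*Gxylt2* (ENSMUSG00000030074), a glucoside xylosyltransferase that extends O-linked glucose on the EGF repeats of Notch receptors and other proteins, lies on the plus strand at chr6:100681695-100787874. It had 1156, 1174, 1113 and 1035 normalized counts with vehicle, 468, 476, 491 and 436 with aldosterone and 1089, 1182, 1062 and 998 with spironolactone. Again the aldosterone libraries stood apart from all others, and the spironolactone and vehicle libraries overlapped. The mean was 467 ± 23.3 with aldosterone and 1119 ± 61.9 with vehicle (SD, n = 4 each), so 41.8% of vehicle, with a log2 difference of -1.26 (SE 0.07).

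**Figure D1:**
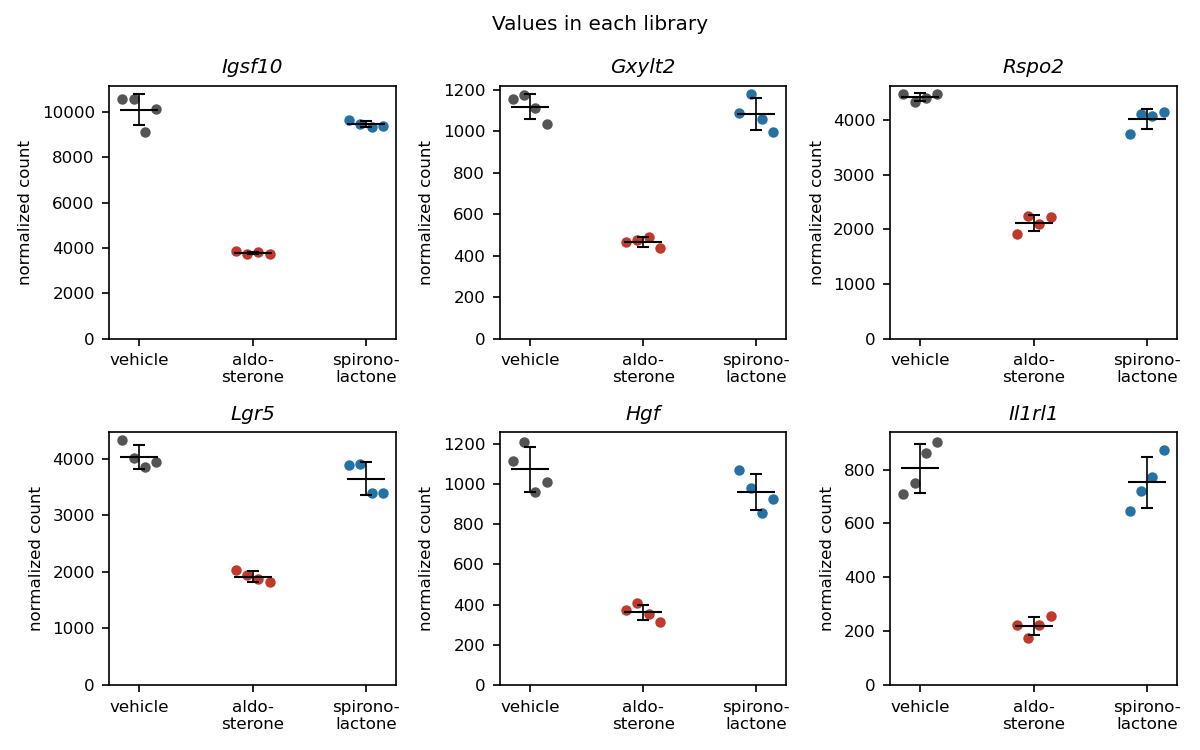
Normalized counts of 6 genes in each library by treatment, with the mean and SD (n = 4) in black. For each gene the 4 aldosterone points lie below all vehicle and spironolactone points, and *Igsf10* has a mean of 3779 with aldosterone against 10106 with vehicle.

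Over the 37 genes the level with aldosterone had a median of 39.4% of vehicle, from 19.3% for *Gjb2* to 55.6% for *Timp3*. It was under 50% in 32 genes. The median log2 difference was -1.33, beside -0.00407 for the 12254 genes that met the mean of 50. An adjusted p of at most 0.05 with a log2 difference of at most -1 in limma was met by 32 of the 37, beside 0.666% of all genes in the table, and the adjusted p alone by 37, beside 4.74%. In 12.8% of the genes that met the mean of 50 all aldosterone libraries lay below all vehicle libraries. These shares follow from the choice of genes, and nothing is read from them. Just inside the ratio of 0.6 were *Mdk* (0.592), *Timp3* (0.592) and *Nr1d2* (0.593), and just outside were *Rspo3* (0.601), *Itga11* (0.602) and *Ctnna2* (0.606).

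**Figure D2:**
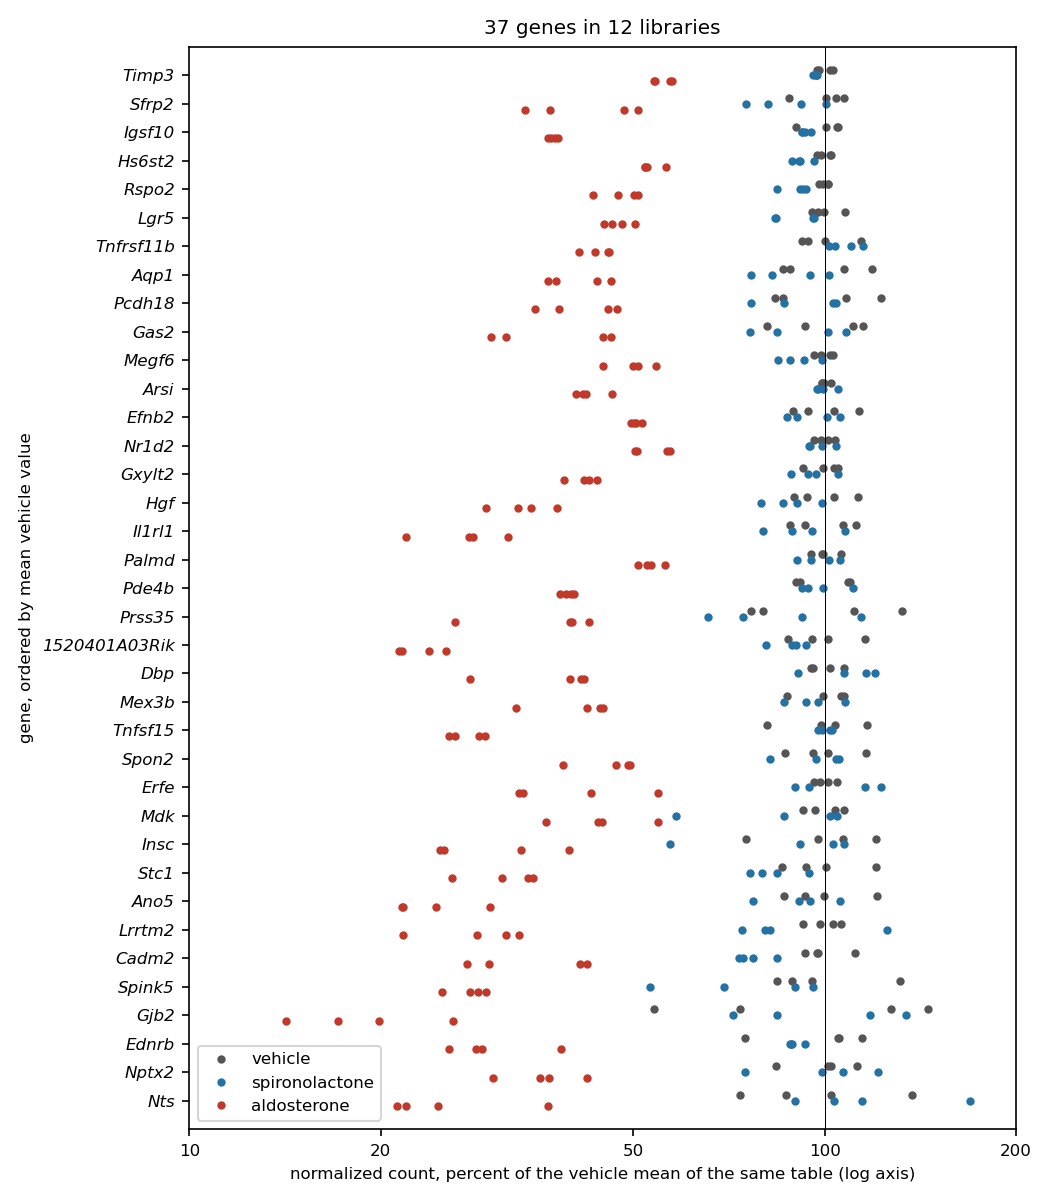
Normalized count of each of the 37 genes in each of the 12 libraries as a percent of the vehicle mean of the same table, on a log axis, with genes ordered by mean vehicle value. The aldosterone points lie below the vehicle and spironolactone points in every gene, and the vehicle points of *Gjb2* spread most.

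Of the 7 matrix and other secreted proteins, *Timp3* had the highest level per length of all 37 genes, as given below. It codes for an inhibitor of metalloproteinases that binds to the matrix. It had 47599, 48099, 45619 and 45308 normalized counts with vehicle and 25218, 25106, 26815 and 26619 with aldosterone. The groups were far apart beside their spread, although its ratio to vehicle, 55.6%, was the highest in the set. The class ranged from 27.6% of vehicle in *Spink5*, a serine protease inhibitor, to this value. *Spink5* had 116, 78.1, 84.2 and 74.1 normalized counts with vehicle and 22.0, 25.1, 25.8 and 24.3 with aldosterone. The aldosterone libraries of *Spink5* were close together, and a single vehicle library was higher than the rest. *Nptx2*, which codes for a secreted pentraxin, was at 36.2% of vehicle, *Prss35*, a secreted serine protease-like protein, at 37.1%, *Spon2*, a spondin of the matrix, at 46.0%, and *Megf6*, a protein with many EGF-like repeats, at 49.9%.

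In WNT signalling R-spondins are secreted ligands that bind LGR receptors and raise the number of WNT receptors at the surface, and SFRP proteins bind WNT ligands outside the cell. The ligand *Rspo2*, on the minus strand at chr15:42884190-43034222, had 4488, 4335, 4404 and 4488 normalized counts with vehicle and 1913, 2253, 2093 and 2221 with aldosterone. *Lgr5*, an R-spondin receptor on the minus strand at chr10:115286216-115423685, had 4337, 4019, 3853 and 3938 with vehicle and 2033, 1938, 1869 and 1814 with aldosterone. They were thus at 47.9% and 47.4% of vehicle, and in each the groups were far apart beside their spread. *Sfrp2* had 11778, 9947, 11387 and 12147 normalized counts with vehicle and 3818, 4176, 5756 and 5458 with aldosterone. Its aldosterone libraries of sample number 2 were both above those of sample number 1, and its mean was 42.4% of vehicle.

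Of the 14 R-spondin, LGR and SFRP genes in the table with related genes, 4 were lower with aldosterone at both thresholds and 0 were higher, with 0.666% and 1.4% of all genes. The 4 were *Rspo2*, *Lgr5* and *Sfrp2*, which were chosen on this contrast, and *Sfrp4* at a mean of 40.7 ± 11.1 with vehicle and 12.0 ± 8.54 with aldosterone. By the adjusted p alone 7 were lower, beside 4.74% of all genes. Besides the 4, these were *Rspo3*, *Lgr4*, another R-spondin receptor, and *Frzb*, another SFRP-type gene. *Rspo3* had 1348 ± 118 normalized counts with vehicle and 678 ± 67.8 with aldosterone. *Lgr4* had 3343 ± 780 and 2040 ± 470, and *Frzb* 440.5 ± 31.2 and 290.5 ± 37.1. The WNT receptor ligase *Znrf3* had 244 ± 21.0 and 247 ± 28.8. Over the 8 genes of this list that met the mean of 50 the median log2 difference was -0.85. For the 12254 genes that met this mean it was -0.00407. The 8 include *Rspo2*, *Lgr5* and *Sfrp2*, so their median follows in part from the choice of genes.

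The 6 growth factors, cytokines and hormones were at 26.1% to 44.9% of vehicle. *Hgf*, the hepatocyte growth factor that acts on muscle stem cells, lies on the plus strand at chr5:16758493-16825150. It had 1112, 1211, 962 and 1008 normalized counts with vehicle and 371, 407, 353 and 315 with aldosterone, or 33.7% of vehicle. Its highest aldosterone library was at 0.423 times its lowest vehicle library. *Tnfsf15*, a cytokine of the tumour necrosis factor family, had 236, 339, 301 and 287 with vehicle and 76.2, 82.9, 74.6 and 84.8 with aldosterone, or 27.4% of vehicle. *Stc1*, the secreted glycoprotein stanniocalcin, had 97.3, 114, 137 and 106 with vehicle and 38.8, 39.5, 29.5 and 35.3 with aldosterone, or 31.5% of vehicle. The coefficient of variation of *Tnfsf15* was 6.24% with aldosterone and 14.7% with vehicle, and that of *Stc1* was 12.8% and 14.8%.

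The neuropeptide precursor *Nts* had the lowest mean normalized count with vehicle, with 86.4, 64.4, 46.4 and 54.7 normalized counts with vehicle and 15.5, 23.1, 13.8 and 13.3 with aldosterone. Its lowest library held 12 reads, and its mean with aldosterone was 26.1% of vehicle. *Erfe*, the hormone erythroferrone that lowers hepcidin, was at 41.0% of vehicle, and *Mdk*, the heparin-binding growth factor midkine, at 44.9%.

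The 3 receptors were at 27.3%, 30.3% and 44.0% of vehicle. *Il1rl1*, an interleukin receptor of the alarmin pathway, lies on the plus strand at chr1:40468730-40504575. It had 710, 749, 860 and 902 normalized counts with vehicle and 225, 176, 222 and 255 with aldosterone. Its highest aldosterone library was at 0.359 times its lowest vehicle library. *Ednrb*, an endothelin receptor, had 75.5, 82.0, 53.7 and 75.1 with vehicle and 20.7, 18.3, 20.3 and 27.5 with aldosterone. *Tnfrsf11b* codes for osteoprotegerin, a soluble decoy receptor for the osteoclast ligand of the tumour necrosis factor family. It had 3987, 4546, 3666 and 3748 with vehicle and 1638, 1824, 1736 and 1820 with aldosterone. Its groups did not overlap, and its level was 44.0% of vehicle.

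Besides *Gxylt2*, the enzymes that act on sugars and sulfate were *Hs6st2*, a heparan sulfate sulfotransferase, and *Arsi*, an arylsulfatase. *Hs6st2* had 6965, 6726, 6993 and 6632 normalized counts with vehicle and 3838, 3561, 3563 and 3586 with aldosterone, or 53.3% of vehicle. *Arsi* had 1885, 1883, 1901 and 1950 with vehicle and 881, 792, 801 and 774 with aldosterone, or 42.6% of vehicle. Of the 37 genes, *Arsi* varied least among vehicle libraries, with a coefficient of variation of 1.65%. In the list of O-linked sugar enzymes and Notch receptors 1 gene, *Gxylt2*, was lower with aldosterone at both thresholds and 0 were higher, of 15 in the table, beside 0.666% and 1.4% of all genes. Its close relative *Gxylt1*, which does the same step, had 884 ± 27.7 normalized counts with vehicle and 895 ± 35.2 with aldosterone (SD, n = 4), with a log2 difference of 0.02 (SE 0.06). *Xxylt1*, which adds the next xylose, had 1718 ± 35.4 and 1462 ± 56.2, and *Lfng*, a fringe enzyme, 294 ± 49.4 and 474 ± 63.6, with adjusted p-values of 0.0093 and 0.0012 by limma.

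**Figure D3:**
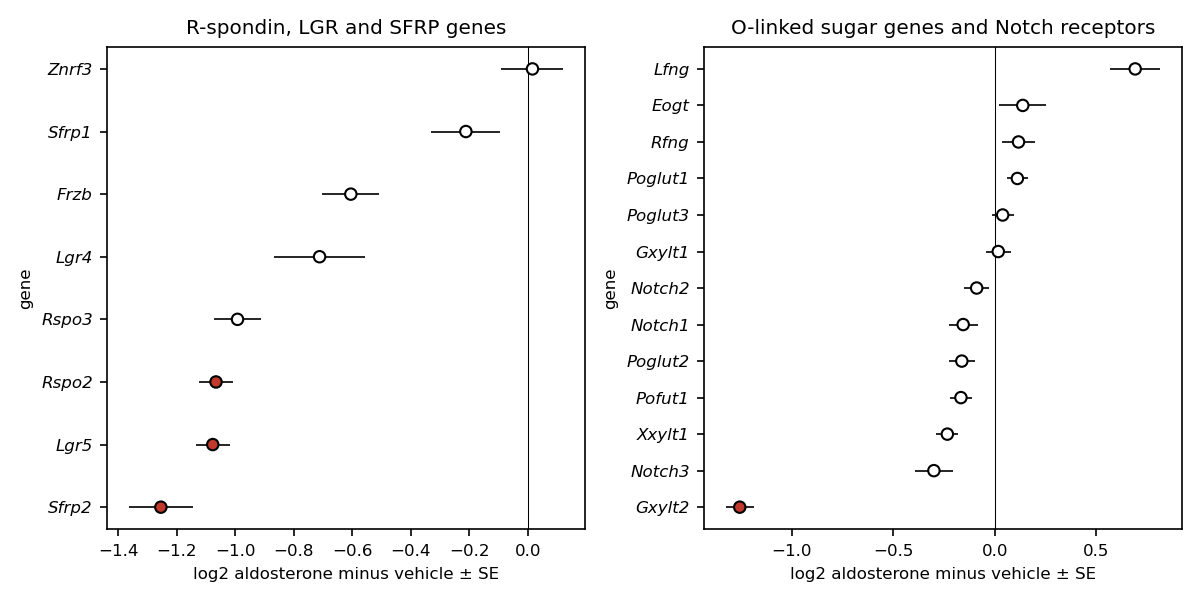
Log2 difference of aldosterone from vehicle with its standard error for genes of 2 lists that met the mean vehicle value of 50, with the genes of the set as filled points. *Sfrp2*, *Lgr5* and *Rspo2* lie lowest of the R-spondin list, and *Gxylt2* lies at -1.26 while *Gxylt1* lies at 0.02.

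The 4 surface adhesion and guidance genes were at 28.6% to 50.4% of vehicle. The protocadherin *Pcdh18* had 1832, 1887, 2364 and 2685 normalized counts with vehicle and 767, 837, 1000 and 1034 with aldosterone. In both groups of *Pcdh18* the libraries of sample number 2 were the higher pair. The ephrin ligand *Efnb2* had 1674, 1771, 1945 and 2133 with vehicle and 931, 970, 941 and 947 with aldosterone, so its libraries lay closer together with aldosterone than with vehicle. *Cadm2*, a cell adhesion molecule, was at 35.1% of vehicle. *Lrrtm2*, a leucine-rich repeat protein of synapses, was at 28.6%, but it lies inside *Ctnna1* on the other strand. The reads of *Ctnna1* over its whole length in vehicle libraries were 7735% of those of *Lrrtm2*. Whether the read counter used the strand is not given in the sources used here. Reads in the stretch that both genes share thus cannot be told apart. Among 29 protocadherins and adhesion genes in the table, 8 were lower at both thresholds, 3 of them from the set, and 0 were higher, beside 0.666% and 1.4% of all genes.

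The channels were *Aqp1*, *Ano5* and *Gjb2*. *Aqp1*, a water channel, had 3164, 3238, 4359 and 3934 normalized counts with vehicle and 1387, 1349, 1610 and 1693 with aldosterone, or 41.1% of vehicle. *Ano5*, an anoctamin that is mutated in a form of limb-girdle muscular dystrophy, had 95.6, 103, 134 and 111 with vehicle and 27.1, 24.1, 23.9 and 33.0 with aldosterone, or 24.4% of vehicle. *Gjb2*, a connexin of gap junctions, had 99.0, 113, 57.4 and 41.9 with vehicle and 15.5, 20.2, 11.05 and 13.3 with aldosterone. Its vehicle libraries of sample number 1 were both above those of sample number 2, with a coefficient of variation of 43.3%, the highest of the set. Of 41 channel genes, 6 were lower at both thresholds, these 3 included, and 2 were higher, beside 0.666% and 1.4% of all genes.

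Among the clock genes the activator *Dbp* had 357, 376, 333 and 335 normalized counts with vehicle and 96.9, 146, 145 and 139 with aldosterone, or 37.6% of vehicle. The repressor *Nr1d2* had 1277, 1348, 1248 and 1312 with vehicle and 652, 656, 732 and 740 with aldosterone, or 53.6%. *Dbp* overlaps *Sphk2* on the other strand by 737 bases, and *Sphk2* over its whole length had 229% of the reads of *Dbp*. Of 17 clock and clock output genes in the table, 2 were lower at both thresholds, *Dbp* and *Per3*, and 2 were higher, *Per1* and *Nfil3*, beside the same shares of all genes. *Per3* had 1077 ± 236 normalized counts with vehicle and 509 ± 94.2 with aldosterone, *Per1* 583 ± 18.7 and 2072 ± 82.1, and *Nfil3*, a repressor of the sites that *Dbp* binds, 478 ± 61.9 and 958 ± 66.5.

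The 5 intracellular genes were at 30.7% to 53.1% of vehicle. The phosphodiesterase *Pde4b*, which breaks down cyclic AMP, had 419, 502, 412 and 499 normalized counts with vehicle and 180, 175, 182 and 184 with aldosterone, or 39.4% of vehicle. *Gas2*, a protein of the actin and microtubule skeleton, had 1808, 1577, 2237 and 2159 with vehicle and 580, 614, 872 and 898 with aldosterone, or 38.1%. *Insc*, an adaptor for the orientation of the mitotic spindle, was at 30.7% of vehicle, *Mex3b*, an RNA-binding protein, at 41.0%, and *Palmd*, the cytosolic protein palmdelphin, at 53.1%. The gene with the lowest ratio of highest aldosterone to lowest vehicle library, 0.290, was *1520401A03Rik*, at chr17:23923462-23941757. It had 328, 380, 358 and 433 normalized counts with vehicle and 80.1, 80.9, 89.3 and 94.98 with aldosterone, so 23.1% of vehicle.

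Spironolactone left the 37 genes near their level with vehicle. Their mean with spironolactone was between 77.1% of vehicle in *Spink5* and 119% in *Nts*, with a median of 92.6%. By limma 0 of the 37 genes, and 0% of the 27598 genes in that table, had an adjusted p of at most 0.05, and the adjusted p of each of the 37 was at least 0.934. At an unadjusted p under 0.05, 7 of the 37 were lower and 0 were higher, beside 1.99% and 2.54% of all genes. The vehicle libraries entered the rule and are those that spironolactone is compared with, so these counts are not independent of how the genes were chosen. On the recovered reads edgeR called 0 genes and DESeq2 had 13 at the adjusted p threshold alone, and neither called any of the 37.

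The intervals show how large a difference these libraries left possible. The 95% interval of the log2 difference between spironolactone and vehicle included 0 in 30 genes and lay below 0 in 7, and none lay above. Its lowest bound was -0.82, in *Spink5*, and its highest 0.72, in *Nts*. In all 37 genes the interval lay above the difference that aldosterone had from vehicle. The genes were chosen for a large aldosterone difference, and both differences share the vehicle libraries. This order thus follows in large part from the choice, and the error of the aldosterone difference is not in it. The interval of *Igsf10* was -0.22 to 0.02 and that of *Gxylt2* was -0.20 to 0.08, beside aldosterone differences of -1.42 and -1.26. The fitted difference was below 0 in 31 of the 37 genes, and in 29 after TMM scaling, beside 49.9% of the genes that met the mean of 50. The median of the fitted difference was -0.106, and -0.0595 when vehicle library 2_1 was left out. The rule favours genes whose values in these vehicle libraries are high, which by itself pulls the difference below 0. The share of all genes is thus no fair baseline, and nothing is read from this count.

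**Figure D4:**
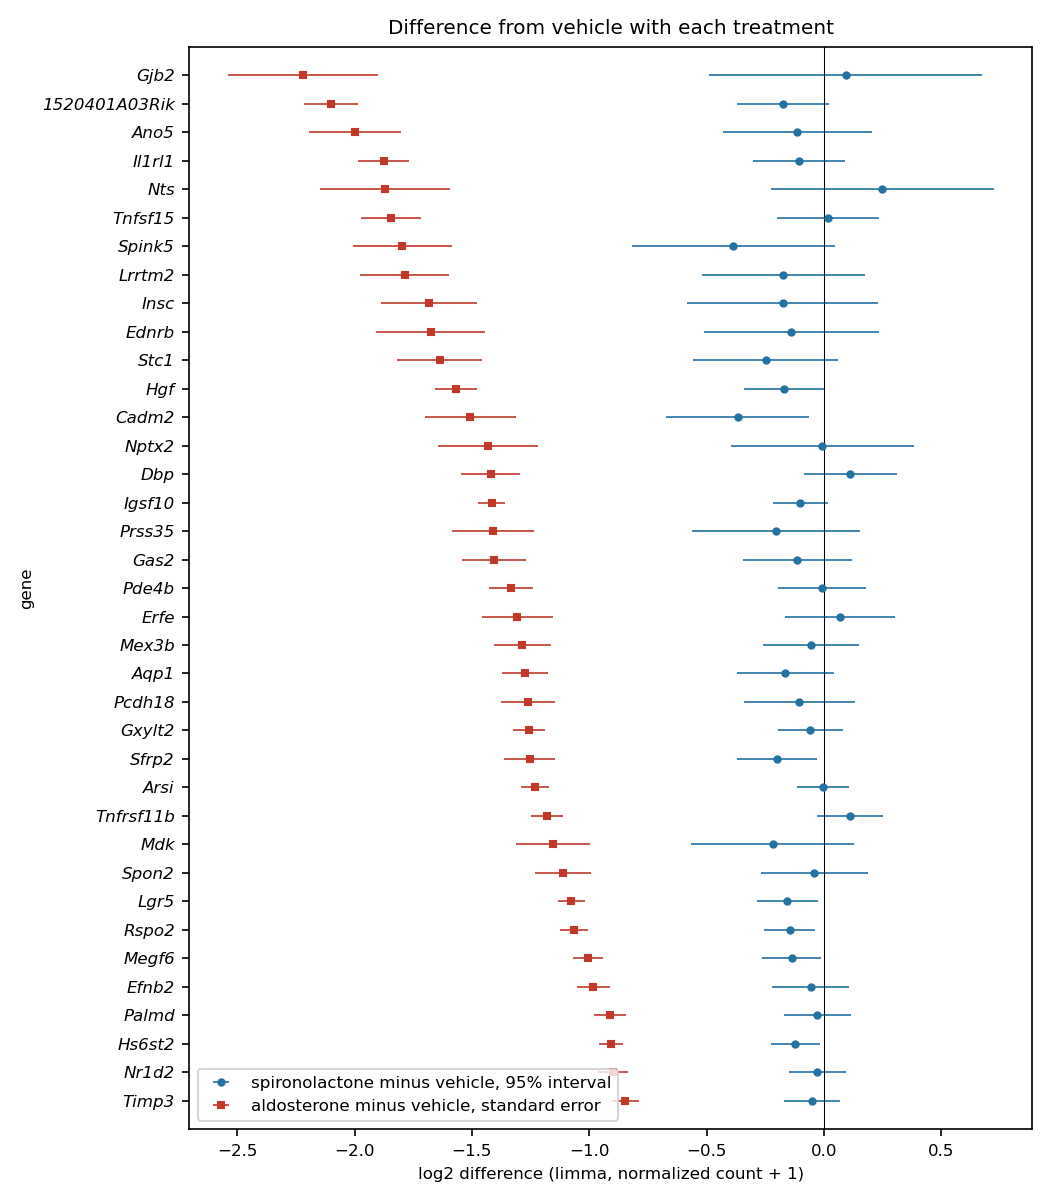
Log2 difference from vehicle of each of the 37 genes, with spironolactone (95% interval) and with aldosterone (standard error). The spironolactone points lie between -0.39 for *Spink5* and 0.25 for *Nts*, and the aldosterone points between -2.22 and -0.85.

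The spironolactone libraries all lay below the vehicle libraries in 4 of the 37 genes, *Timp3*, *Hs6st2*, *Rspo2* and *Cadm2*, beside 1.57% of the genes that met this mean, and above in 0, beside 1.84%. The rule favours a high lowest vehicle library and so this order, and nothing is read from these counts. *Rspo2* had 3753, 4123, 4078 and 4162 normalized counts with spironolactone and 4506, 4368, 4435 and 4516 with vehicle in the same table, a log2 difference of -0.15 with an interval of -0.25 to -0.04. *Cadm2* had 85.0, 74.0, 75.2 and 78.0 with spironolactone and 98.5, 94.4, 113 and 98.3 with vehicle. In *Cadm2* the log2 difference was -0.37 with an interval of -0.67 to -0.06, and its adjusted p by limma was 0.934.

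*Spink5*, *Cadm2* and *Stc1* had the lowest differences with spironolactone, -0.39, -0.37 and -0.25, and *Nts*, *Dbp* and *Tnfrsf11b* the highest, 0.25, 0.11 and 0.11. *Nts* had 72.4, 107, 65.6 and 57.0 normalized counts with spironolactone and 86.7, 64.9, 46.7 and 55.1 with vehicle, and the groups overlapped. When the sample number was added to the fit as a replicate block, *Sfrp2* was the only one of the 37 genes with an adjusted p of at most 0.05 by limma (0.0354, lower), beside 0.123% of all genes that were lower. *Sfrp2* had 8556, 9273, 10463 and 11448 normalized counts with spironolactone and 11823, 10021, 11466 and 12223 with vehicle, and within each sample number both spironolactone libraries were below both vehicle libraries, at 87.3% of vehicle over all.

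In the comparison of aldosterone with spironolactone the aldosterone libraries are those of the rule, and the values are a description. Every aldosterone library was below every spironolactone library in all 37 genes, beside 11.3% of the genes with a mean spironolactone value of 50 or more. The level with aldosterone was 19.0% to 58.1% of that with spironolactone, with a median of 41.3%, and the median log2 difference was -1.29. The adjusted p was at most 0.05 in all 37, beside 3.96% of all genes, and 28 also had a log2 difference of at most -1, beside 0.521%. A highest aldosterone library below 0.6 times the lowest spironolactone library was found in 21 of the 37, beside 0.219% of those genes. *Mdk* had the highest ratio, 0.935, as its spironolactone libraries were at 77.7, 139, 136 and 115 normalized counts and its aldosterone libraries at 58.1, 48.2, 58.9 and 72.2. Its adjusted p exceeded 0.05 when any of 5 libraries was left out, with values from 0.0667 to 0.0855 by limma.

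Libraries were also compared between sample numbers with treatment held fixed. The rule used 8 of these 12 libraries, and its ratio depends on their spread within a group, so the values are a description. Between sample numbers 2 and 1, with treatment in the fit of all 12 libraries, 0 of the 37 genes passed both thresholds in limma, beside 0.314% of all genes lower and 0.566% higher. By the adjusted p alone 3 were lower in sample number 2, beside 5.79%, and 7 were higher, beside 5.07%. The higher genes were *Gas2*, *Pcdh18*, *Aqp1*, *Sfrp2*, *Prss35*, *Il1rl1* and *Efnb2*, and the lower genes were *Hgf*, *Gjb2* and *Lgr5*. *Gas2* had a log2 difference of 0.44. *Prss35* had the highest log2 difference, 0.51, and *Gjb2* the lowest, -0.76. Spironolactone libraries of *Gas2* were at 1493, 1644, 2115 and 1981 normalized counts, with the libraries of sample number 2 above those of number 1, as with vehicle and with aldosterone.

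The rule put every aldosterone library below 0.6 times every vehicle library, so the level with aldosterone lies below that ratio to vehicle in each sample number by construction. Below that limit the genes varied. In sample number 1 it was 16.8% to 55.2% of vehicle, with a median of 38.6%, and in sample number 2 it was 23.2% to 58.8%, with a median of 40.3%. *Igsf10* was at 35.9% and 39.0%, *Gxylt2* at 40.5% and 43.1%, *Hgf* at 33.5% and 33.9% and *Il1rl1* at 27.5% and 27.1%. *Stc1* was at 37.0% and 26.7% and *Ednrb* at 24.7% and 37.0%, with 2 libraries of each treatment behind each value. The percent was lower in sample number 1 in 22 of the 37 genes.

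**Figure D5:**
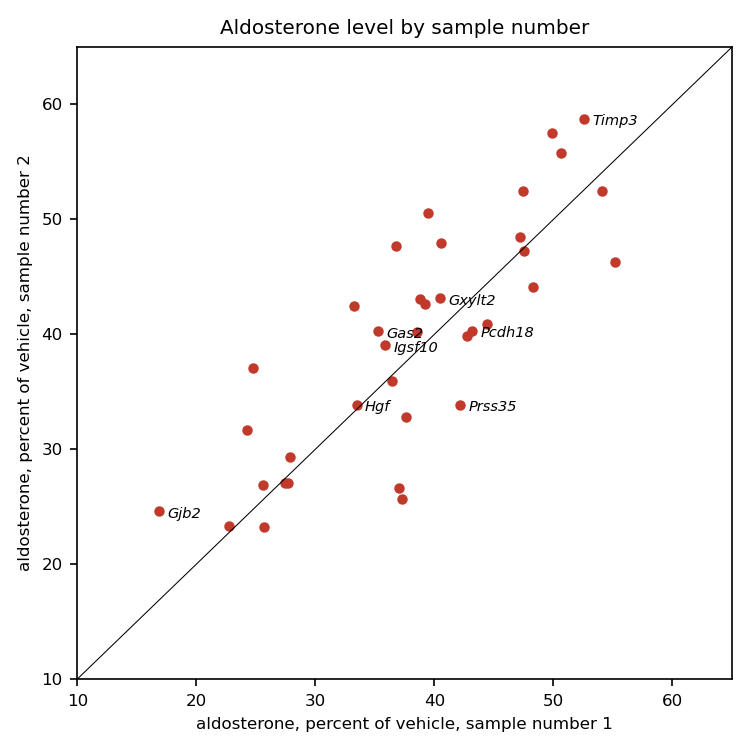
Level with aldosterone as a percent of vehicle in sample number 1 (x axis) and sample number 2 (y axis), a point for each of the 37 genes, with the line of equal values. *Gjb2* is lowest in sample number 1 at 16.8%, and *Timp3* is highest in sample number 2 at 58.8%.

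All 37 genes were protein coding, beside 94% of the 12254 genes. They lay on 16 chromosomes, with at most 5 on a chromosome. Of the 37, 2 were listed as transcription factors, *Dbp* and *Nr1d2*, beside 7.54% of those genes. Their gene length in the tables had a median of 4993 bases, from 1248 in *Nts* to 10560 in *Pde4b*, beside 4546 for those genes. The vehicle libraries had a median coefficient of variation of 10.4% in the 37 genes, beside 7.55%.

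On a scale that divides by length, the 37 genes spanned a wide range of levels with vehicle. *Timp3* was highest at 243 ± 5.04 FPKM (reads scaled to gene length and to the depth of the library, SD, n = 4), and *Sfrp2* followed at 223 ± 19.6. These differed by about the SD of *Sfrp2*. *Tnfrsf11b* at 60.0 ± 5.67, *Aqp1* at 59.4 ± 9.96 and *Igsf10* at 42.2 ± 2.54 came next, and *Tnfrsf11b* and *Aqp1* were within their SD. *Cadm2* was lowest at 0.435 ± 0.0383, below *Ano5* at 0.603 ± 0.0968. With aldosterone *Timp3* was at 131 ± 7.19 FPKM and *Sfrp2* at 92.2 ± 19.9. No library had 3 reads or fewer in any of the 37 genes, and the lowest count was 12 reads.

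Other genes of the set overlap a neighbour, and the part of these overlaps in their levels was not tested. The percents below are of all reads of the neighbour in vehicle libraries, not only of those in the overlap. *Erfe* overlaps *Ilkap* by 357 bases on the other strand, and *Ilkap* had 384% of its reads. *Gas2* overlaps *Fancf* by 253 bases, with 16.5% of its reads. *Hgf* overlaps a predicted gene on its own strand, with 2.45% of its reads. *Ilkap* had 831 normalized counts with vehicle and 926 with aldosterone, *Sphk2* 800.2 and 829 and *Ctnna1* 8234 and 8392. Other neighbours had lower means with aldosterone. *Fancf* had 317 and 232, and *Gm43489*, the predicted gene at *Hgf*, 26.5 and 5.51. *Med12l*, which overlaps *Igsf10* by 1948 bases on the other strand, had 69.6 and 24.7 and 0.691% of its reads. *Syn3*, on the other strand at *Timp3*, had 22.5 and 14.1.

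Promoter windows of 250 bases before and 50 bases after the start were read from RefSeq for the GRCm38.p6 build, which is another build than that of the tables. They were found for 26 of the 37 genes, with 37 windows in all. Their GC content had a median of 58.7%, from 38.7% to 80.7%, beside 52.7% over 32851 windows of all genes. They held a median of 12 CG dinucleotides, beside 7. The windows of all genes were not limited to genes that met the mean of 50. The windows of the 2 named examples are shown with no capitals, as none of the 9 motifs searched was in them.

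Igsf10 promoter (chr3:59344207-59344506, minus strand): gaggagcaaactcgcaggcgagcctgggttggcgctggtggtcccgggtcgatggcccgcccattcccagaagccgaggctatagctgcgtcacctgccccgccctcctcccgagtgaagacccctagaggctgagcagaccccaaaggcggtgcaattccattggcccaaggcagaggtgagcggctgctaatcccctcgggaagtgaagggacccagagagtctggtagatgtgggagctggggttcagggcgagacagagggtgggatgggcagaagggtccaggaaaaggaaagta
Gxylt2 promoter (chr6:100704484-100704783, plus strand): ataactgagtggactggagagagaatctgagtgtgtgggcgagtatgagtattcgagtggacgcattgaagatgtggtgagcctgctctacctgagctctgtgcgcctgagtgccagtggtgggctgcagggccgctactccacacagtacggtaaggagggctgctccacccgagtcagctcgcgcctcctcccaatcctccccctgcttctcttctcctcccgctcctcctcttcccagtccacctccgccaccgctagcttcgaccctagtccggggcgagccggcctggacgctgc

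A single arm of the steroid receptor site, AGAACA or TGTTCT on either strand, was in windows of 3 of the 26 genes, *Hgf*, *Pde4b* and *Ednrb*. That was 11.5% of the genes and, by window, 10.8% of their 37 windows, beside 19% of all windows. The palindrome of both arms with 3 bases between them was in 0 of them and in 0.00913% of all windows. Windows of *Hgf* and *Ednrb* are shown because both genes are receptors or ligands of the set with this arm, which is in capitals.

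Hgf promoter (chr5:16553245-16553544, plus strand): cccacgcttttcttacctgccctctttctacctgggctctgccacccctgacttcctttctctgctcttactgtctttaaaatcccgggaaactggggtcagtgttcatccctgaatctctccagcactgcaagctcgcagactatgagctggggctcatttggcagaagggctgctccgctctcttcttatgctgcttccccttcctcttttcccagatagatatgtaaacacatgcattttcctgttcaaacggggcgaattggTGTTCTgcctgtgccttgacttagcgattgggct
Ednrb promoter (chr14:103843652-103843951, minus strand): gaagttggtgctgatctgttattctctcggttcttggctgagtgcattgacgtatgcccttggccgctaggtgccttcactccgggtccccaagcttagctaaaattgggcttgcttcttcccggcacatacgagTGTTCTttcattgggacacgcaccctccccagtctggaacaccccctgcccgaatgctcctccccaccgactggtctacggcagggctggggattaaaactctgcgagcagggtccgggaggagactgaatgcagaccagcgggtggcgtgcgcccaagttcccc

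The AP-1 site TGACTCA or TGAGTCA was in 1 of the 26 genes, *Nts*, or 2.7% of their windows, beside 5.2% of all windows. It is in capitals in the window of that gene. The cyclic AMP response site TGACGTCA was in 0, beside 1.79%, and the 2 forms of the NF-kappaB site that were searched were in 0, beside 0.155% and 0.0883%. The E-box CACGTG was in *Cadm2*, or 2.7% of the windows, beside 7.15%, and the site TTATGTAA of the *Dbp* family in 0, beside 0.938%. TATAAA was in *Efnb2* and *Hs6st2*, or 5.41% of the windows, beside 13.6%. A match says only that these letters are in the window.

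Nts promoter (chr10:102490369-102490668, minus strand): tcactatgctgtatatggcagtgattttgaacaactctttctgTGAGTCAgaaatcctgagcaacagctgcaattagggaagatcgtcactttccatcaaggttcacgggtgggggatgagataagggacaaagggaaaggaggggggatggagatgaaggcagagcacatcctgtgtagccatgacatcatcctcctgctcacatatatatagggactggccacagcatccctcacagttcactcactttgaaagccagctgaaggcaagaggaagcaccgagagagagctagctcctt

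Genes of the same pathways outside the set were read from lists chosen with results of these data known, and their counts at both thresholds stand beside 0.666% of all genes lower and 1.4% higher. Of 42 growth factors and other secreted ligands, 12 were lower with aldosterone at both thresholds, 7 of them from the set, and 2 were higher, *Vegfc* and *Vegfd*. Of 37 matrix and secreted protease genes, 13 were lower, 5 of them from the set, and 2 were higher, *Postn* and *Spon1*, the latter a relative of *Spon2*. *Spon1* had 56.8 ± 13.7 normalized counts with vehicle and 116 ± 7.35 with aldosterone, while *Spon2* had 281 ± 34.7 and 129 ± 14.0. *Vegfd* had 2846 ± 174 and 7899 ± 318, and *Postn* 16786 ± 2238 and 65861 ± 8121. Of 26 receptors, 6 were lower, 4 of them from the set, and 0 were higher. Of 36 semaphorin, ephrin receptor and other guidance genes, 2 were lower and 1 was higher, and of 19 prostaglandin and cyclic nucleotide genes 2 were lower, *Ptgs2* and *Pde4b*, and 0 were higher. Of 18 NR4A and other immediate early transcription factor genes, 2 were lower and 1 was higher. The genes for the receptors *Nr3c1*, of glucocorticoids, and *Nr3c2*, of mineralocorticoids, had 2880 ± 121 and 37.5 ± 20.8 normalized counts with vehicle and 2170 ± 66.0 and 14.5 ± 5.83 with aldosterone, with adjusted p-values by limma of 6.5e-05 and 0.0853.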

How the data were processed

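Poly(A) RNA of 12 libraries, 4 per treatment, was analysed. The submitters' processing notes name HISAT2 2.0.5, featureCounts 1.5.0-p3 and mm39, while the methods name mm9. For every 2 treatments the authors deposited 1 table, with signal values (normalized counts: the reads of a gene over the size factor of its library) and DESeq2 fold changes and p-values, which were not used. Whole reads were recovered from 22 columns, with 100% of values within 0.01 reads of a whole number, while 2 columns had a step too close to 1 and their libraries were read from another table, and edgeR (4.0.16) and DESeq2 (1.42.0) were run on them as alternatives. edgeR called 468 genes between aldosterone and vehicle, 0 between spironolactone and vehicle and 430 between aldosterone and spironolactone.

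The members of the set, the gene lists and the tests were chosen with earlier results of these data known. limma (3.58.1 in R 4.3.3) with a variance trend was fitted to log2(normalized count + 1) for every gene of a table, with Benjamini-Hochberg adjustment over the table, and thresholds of 0.05 and a log2 difference of 1. Libraries are counted as n = 4. Tests were checked on simulated data. Named genes are the 2 leading examples, the 10 with the lowest ratio, the 10 most abundant, those beside the threshold, the extremes with spironolactone, members of the lists and steroid controls. The remaining genes of the set, and genes of the lists beyond the 4 most abundant, were named after their values were seen. Across treatments, libraries that share a sample number deviated alike from their group means (mean r 0.219 over 24 pairs, lowest 0.134), so the sample number pairs them and was used as a replicate block in an alternative. For the biological replicate number the mean r was -0.00547. Other alternatives were a pseudocount of 0.5, genes with a mean of at least 10, TMM-scaled values, other thresholds of the rule and leaving out each library. Protein levels and functional assays were not analysed here.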

Additional observations from a re-analysis of the deposited data

Results flagged for a closer look

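In 111 groups of 4 libraries (37 genes in 3 treatments), the gap between the highest or lowest library and the nearest other was compared with the range of the group, at Dixon's critical ratio for a 95% level. Chance passes about 5% of groups that were not chosen on their values, and 5 passed, or 4.5%. The rule bounds the highest aldosterone and the lowest vehicle library. The rate of 5% thus does not hold for the aldosterone and vehicle groups, and nothing is read from this count. *Hs6st2* had a ratio of 0.911 with aldosterone, where library 1_1 was at 3838 normalized counts and the others at 3561 to 3586. *Prss35* had 0.83 with aldosterone, where library 1_2 was at 103 and the others at 156 to 167. *Dbp* had 0.848 with aldosterone, where library 1_1 was at 96.9 and the others at 139 to 146. *Lrrtm2* had 0.844 with spironolactone, where library 2_2 was at 135 and the others at 79.8 to 88.3, and *Ednrb* had 0.856, where library 2_2 was at 67.0 and the others at 63.5 to 64.0.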

How the results depend on the processing

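The choice of genes moved with the thresholds of the rule: 17 genes met a ratio of 0.5 and 110 a ratio of 0.7, all 37 among them, where 37 met 0.6. Between 39 and 45 genes met the rule when each library was left out, all 37 among them. Leaving out a library can only lower or keep the ratio of a gene, so this follows from the rule. With a replicate block on the sample number 2 genes were called between spironolactone and vehicle, neither of them in the set. At the adjusted p of 0.05 alone 97 genes passed with the block, where 0 passed without it, and 1 of the 97, *Sfrp2*, was in the set. The median log2 difference with spironolactone ranged from -0.123 to -0.0595 over the libraries left out, and was -0.0595 without vehicle library 2_1. Between sample numbers 255 genes were called, 151 without the spironolactone libraries and 150 with these alone, where fewer libraries are in the fit, and 179 to 223 when each library was left out. Under all alternatives run, 37 of 37 genes kept their direction with aldosterone and an adjusted p of at most 0.05 against vehicle, and against spironolactone all but *Mdk* did. The genes were chosen on the contrast with vehicle, so the first result follows from the choice and nothing is read from it. The aldosterone libraries of the second are also those of the rule. The block changed no other call among the 37 genes. Genes with the lowest counts, such as *Nts* and *Gjb2*, are limited by depth, with 12 reads in their lowest library.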
